A study of Capsicum chinense with 22 samples.

Results

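Pericarp of *Capsicum chinense* at 20 days after anthesis (DAA) was compared here between pungent and non-pungent accessions, in 11 of the 22 libraries of the series. The pungent accessions were Hab (Habanero, red when ripe) and A101 (yellow when ripe), with 3 libraries each. The non-pungent accessions were Biq (Biquinho, red when ripe) with 3 libraries and A18 (yellow when ripe) with 2. All plants grew in a greenhouse without treatment, and each library came from the fruits of 1 plant. The remaining 11 libraries came from the same accessions at 60 DAA. The genes described are those in which the mean of Hab and the mean of A101 both lay above, or both lay below, the means of Biq and A18. Of the 16922 genes in the table, 4113 met this rule, and 288 of them (1.70% of all genes) also passed the threshold of the test. The 4 accessions differ in much else besides pungency, so a difference that follows pungency and any other difference that separates these 4 accessions in the same way cannot be told apart.

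Pungency in *Capsicum* comes from capsaicinoids, which plants make by joining an amine to a fatty acid. The amine, vanillylamine, comes from the phenylpropanoid pathway through an aminotransferase related to gamma aminobutyrate (GABA) transaminases. The fatty acid is built on a branched starter from the breakdown of valine or leucine and lengthened by the plastid fatty acid synthase, and an acyltransferase of the BAHD family joins both parts. This synthesis is known mainly from the placenta, the tissue that bears the seeds, whereas the libraries here came from pericarp.

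The values are variance-stabilized counts, close to log2, and each gene's mean over all 22 libraries was subtracted, so a value of 1 means about 1 log2 unit above that gene's own mean. Levels can be set against each other within a gene but not between genes. The reads had been mapped to *C. annuum*, and whether a difference between accessions reflects expression or sequence differences that alter mapping was not tested. In bulk pericarp, fewer cells of a type and less RNA per cell cannot be told apart. Genes for photosystems, light harvesting and Rubisco mark the green pericarp of young fruit. Their mean over 63 genes was 0.32 to 0.65 (Hab), 1.97 to 2.04 (A101), −0.59 to −0.43 (Biq) and 2.15 to 2.25 (A18). Both yellow accessions thus lay above both red ones. None of the 63 genes lay on one side, but their median pungency difference was 0.40 against 0.00 over all genes. At a limma adjusted p under 0.05 alone, 25 were higher and 1 was lower in the pungent accessions. Markers of xylem and secondary walls (34 genes) averaged −0.04 to −0.02 (Hab), 0.90 to 1.42 (A101), 0.70 to 1.08 (Biq) and 1.14 to 1.61 (A18). Of these 34 genes, 10 passed the threshold described below as lower and 0 as higher in the pungent accessions, none of them on one side, with a median difference of −0.67 against 0.00 over all genes, and the part of this tissue in the other lower genes was not tested. The 6 seed storage and late embryogenesis genes, which would mark carried-over seed, had overlapping ranges, −0.68 to −0.45 in pungent and −0.60 to −0.47 in non-pungent libraries. The 3 Hab libraries lay farther from each other (Euclidean distance over all genes 52.1 to 67.3) than those of A101 (27.5 to 41.4) or Biq (25.2 to 41.2), against 65.5 to 94.5 between libraries of different accessions.

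At 20 DAA, 229 genes (1.35% of those tested) were higher and 248 (1.47%) were lower in the pungent accessions, where the limma p was under 0.05 after Benjamini-Hochberg adjustment across the whole table and the difference was at least 1 in size. The model had a mean for each accession at each stage. Of these genes, 142 (0.839% of all genes) were higher and 146 (0.863%) were lower in both pungent accessions than in both non-pungent ones. All 6 pungent libraries lay beyond all 5 non-pungent libraries in 67 of the higher genes (0.396%) and in 79 of the lower ones (0.467%), while without a threshold this held in 1.58% and 1.73% of all genes. The other 189 genes past the threshold did not lie on one side. The median difference of the 142 genes was 1.33 and that of the 146 genes was −1.38, against 0.00 over all genes.

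The test used the spread between plants of an accession, but only 2 accessions stood on each side, and with the accession as the unit the smallest two-sided exact p is 0.333. When the accession was kept as a random block among the 20 DAA libraries, 15 of the 142 genes and 21 of the 146 genes passed. That model used a correlation shared by all genes and still counted libraries, so its p does not replace a test between accessions. In 75 of the 142 higher genes and 47 of the 146 lower genes, 3 or more of the 22 libraries shared the lowest value. Both shares are well above the 7.62% of all genes, and the differences there are bounded by that value. Without all such genes, 67 higher and 99 lower genes were left.

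Within the colour pairs, Hab exceeded Biq in 517 genes (3.06%) and was below it in 596 (3.52%), while A101 exceeded A18 in 376 (2.22%) and was below it in 269 (1.59%). Both pairs passed in the same direction in 36 genes that were higher (0.213%) and 52 that were lower (0.307%) in the pungent accession. Most of the 288 genes were therefore past the threshold in only 1 of the pairs, with the other pair pointing the same way.

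**Figure D1:**
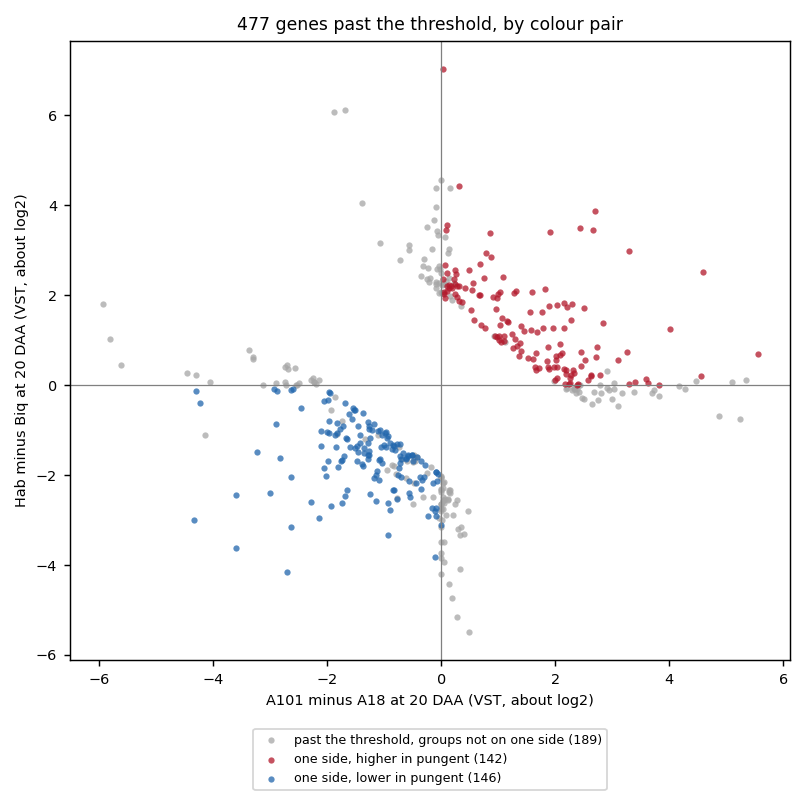
Difference between the red accessions (Hab minus Biq, vertical axis) and the yellow accessions (A101 minus A18, horizontal axis) at 20 DAA, on the variance-stabilized scale (about log2), for the 477 genes past the threshold. Red points (142) were higher and blue points (146) lower in both pungent than in both non-pungent accessions, and the 189 grey points were past the threshold without lying on one side, many of them near an axis where 1 pair carried the difference.

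The largest differences on the higher side included an aminotransferase and an acyltransferase. GABA transaminase 2 (LOC107854420), of the family that includes the aminotransferase of vanillylamine synthesis, was at 2.81, 2.76 and 1.39 in Hab and 5.65, 5.28 and 5.36 in A101, while Biq was at −0.11, −0.30 and −0.19 and A18 at 0.46 and 1.23. The lowest pungent library lay above the highest non-pungent one, and A101 stood well above Hab. The difference was 3.55 ± 0.20 (SE, limma adjusted p = 7.44e-11), although with accession as a random block it missed the threshold (adjusted p = 0.282).

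An acylsugar acyltransferase 3-like gene (LOC107859692), named after BAHD enzymes that add acyl chains to sugars in tomato, was at 5.05, 1.31 and 2.57 in Hab and 4.02, 3.39 and 3.48 in A101, while Biq was at −0.98, −0.77 and −0.97 and A18 at 0.89 and 0.96. The groups did not overlap, but the 3 Hab plants held both the lowest and the highest pungent value. Its difference was 3.29 ± 0.40 (SE, limma adjusted p = 4.14e-06), and 2.77 without Hab library a. With accession as a random block the adjusted p was 0.759. Genes of this family can be similar in sequence, and the quantification may have split their reads.

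A list of 14 GABA transaminase and acyltransferase genes was matched by words in the gene names. It held only these 2 genes among the 288 (14.3% of the list, against 1.70% of all genes). Its median difference was 0.38 against 0.00 over all genes. Another acylsugar acyltransferase 3-like gene (LOC107859694) and a vinorine synthase-like gene (LOC107848376), named after a BAHD enzyme of alkaloid synthesis, passed the threshold (differences of 1.21 and 1.14), but Hab did not lie above Biq on average in either, and without Hab library a the differences were 0.86 and 0.78. In both genes Hab library a (3.94 and 3.26) was close to A101 (3.88 to 4.27 and 3.26 to 3.73), whereas Hab library b (1.84 and 0.68) was below all 3 Biq libraries (2.68 to 3.13 and 1.68 to 2.15). Acylsugar acyltransferase 3-like genes LOC107872282 and LOC107855820 had differences of 0.95 and 0.68, below the minimum of 1.

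The other genes of that list did not pass the threshold. GABA transaminase 3 (LOC107841786) differed by −0.70, with its highest values in Biq (1.79 to 1.88), and GABA transaminase 1 (LOC107862720), the mitochondrial form, by 0.08. Both genes named BAHD acyltransferase DCR, an enzyme of cutin synthesis, differed by −0.38 (LOC107842775) and −0.30 (LOC107863241). Vinorine synthase-like LOC107857253 and LOC107877439 differed by 0.33 and 0.44. Both glycerol-3-phosphate acyltransferase 3-like genes, which the words of the list also caught although they act in glycerolipid synthesis, differed by −0.04 (LOC107840627) and 0.06 (LOC107855326).

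Leaving out Hab library b or c raised the count of the list to 5 higher genes. Hab library a exceeded Hab library b by 1 or more in 26 of the 142 higher genes, and the reverse held in 9, against 2.18% and 3.02% of all genes.

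Of 83 genes in the branched-chain acyl list, which supply and lengthen the acyl chain, 4 were higher and 1 was lower (6.02% of the list, against 1.70% of all genes), with a median difference of 0.03 over the list. A 3-oxoacyl-[acyl-carrier-protein] reductase FabG-like gene (LOC107843767), which acts in every round of chain lengthening, was at 2.02, 1.31 and 1.09 in Hab and 2.26, 2.17 and 2.13 in A101, while Biq was at 0.96, 0.93 and 0.82 and A18 at −0.93 and −0.91. Its difference was 1.84 ± 0.12 (SE, limma adjusted p = 1e-09), with Hab only 0.57 above Biq and A101 3.11 above A18. It missed the threshold with accession as a random block (limma adjusted p = 0.442). Another FabG-like gene (LOC107844002) differed by 1.02, with 1 A18 library (1.28) inside the range of the pungent libraries (1.21 to 2.83), and it fell short of the minimum without A18 library a (0.64) or Hab library b (0.85).

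Oxoacyl-[acyl-carrier-protein] synthase I (LOC107864098), the condensing enzyme that lengthens the chain, was at 4.07, 1.01 and 1.92 in Hab and 4.43, 4.08 and 4.07 in A101, while Biq was at 2.14, 2.58 and 2.12 and A18 at 2.05 and 1.82. The values of A101 and Hab library a stood apart, while Hab library b lay below and Hab library c within the non-pungent range. The difference of 1.16 (limma adjusted p = 0.0172) fell short of the minimum without Hab library a, at 0.72, and missed the threshold without A18 library b (adjusted p = 0.0635).

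Branched-chain-amino-acid aminotransferase 2 (LOC107867296), which converts leucine and valine and their keto acids into each other, had a similar split of the Hab libraries, at 2.14, −0.34 and 0.26 in Hab and 2.11, 1.73 and 1.76 in A101, while Biq was at 0.28, 0.42 and 0.28 and A18 at −0.40 and −0.18. Its difference was 1.26, and 0.89 without Hab library a. Branched-chain-amino-acid aminotransferase-like protein 1 (LOC107852061) went the other way, at −2.75 to −2.27 in Hab and −2.51 to −2.06 in A101, while Biq was at −1.28 to −0.48 and A18 at −0.95 to −0.83. Its difference was −1.57 ± 0.12 (SE, limma adjusted p = 1.2e-08) and the groups did not overlap, but it missed the threshold with accession as a random block (limma adjusted p = 0.13). Without Hab library a, 2 higher genes were left in the list.

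Of the 56 genes of the phenylpropanoid branch, which supplies the aromatic part of capsaicinoids, 0 passed the limma threshold in either direction, and the median difference was 0.04. Without the minimum difference, 9 were higher and 12 lower at an adjusted p under 0.05, and 16 were higher and 18 lower at an unadjusted p under 0.05. The 35 MYB genes, the family of several known regulators of that pathway, held 0 of the 288 genes. Of the 35, 1 passed the threshold as higher without lying on one side, and 7 were higher and 9 lower at an unadjusted p under 0.05.

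**Figure D2:**
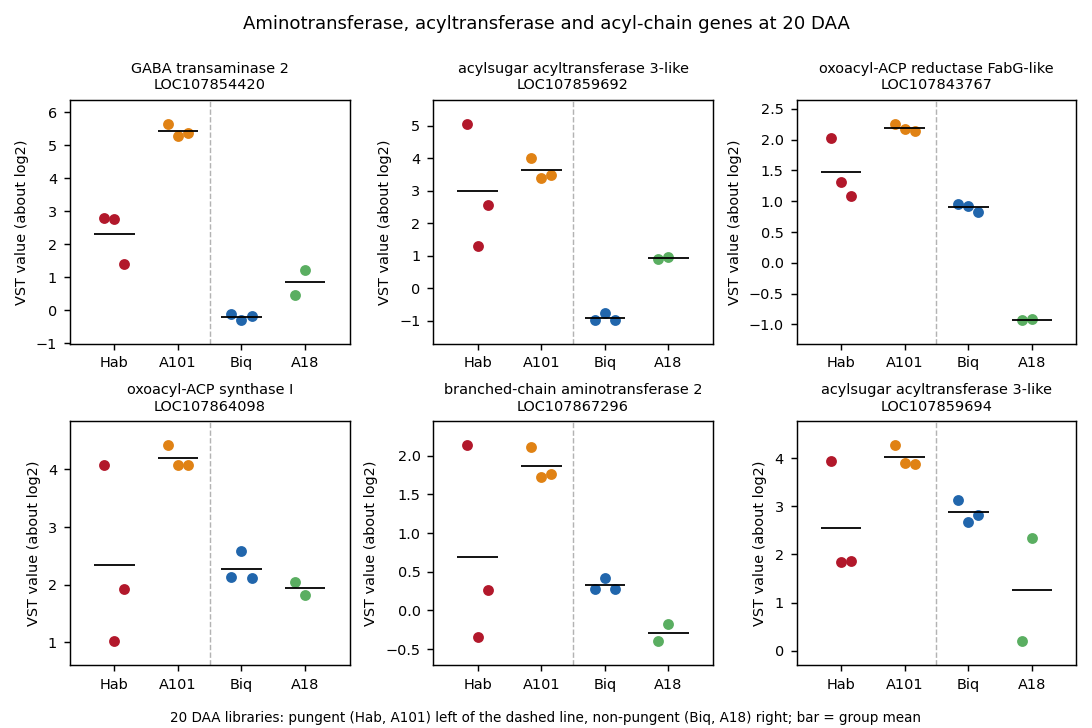
Variance-stabilized values (about log2, centred per gene) of 6 genes in each 20 DAA library, with the pungent accessions left of the dashed line, a point for each library in column order and a bar at each group mean. GABA transaminase 2 and acylsugar acyltransferase LOC107859692 separate all pungent from all non-pungent libraries, whereas in oxoacyl-[acyl-carrier-protein] synthase I and branched-chain aminotransferase 2 the first Hab library lies with A101 and the others lie near Biq and A18.

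Some lipid genes of the fruit surface were also higher. Of 93 genes for lipid transfer, wax and cutin, 11 passed the threshold as higher and 1 as lower. On one side lay 6 and 1 of these (7.53% of the list, against 1.70% of all genes), while the median over the list was −0.03. Protein ECERIFERUM 1-like (LOC107844046), of a family that makes wax alkanes, was at 3.84, 2.37 and 2.51 in Hab and 3.29, 2.95 and 2.91 in A101, while Biq was at 1.62, 1.65 and 1.65 and A18 at 0.58 and 1.61. No non-pungent library reached the pungent ones, and the difference was 1.61 ± 0.21 (SE, limma adjusted p = 1.18e-05). It missed the threshold with accession as a random block (limma adjusted p = 0.789).

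Glycerol-3-phosphate 2-O-acyltransferase 6-like (LOC107843463), a cutin gene, differed by 1.72, and fatty acyl-CoA reductase 3-like (LOC107848361), a wax alcohol gene, by 1.33. In the first, Hab libraries b (−0.25) and c (0.49) were within the non-pungent range, and the Hab mean was 0.66 against 0.62 in A18. In the second, Hab library b (−0.09) was below every non-pungent library. Fatty acyl-CoA reductase 3-like fell short of the minimum without Hab library a, at 0.95. Smaller differences were seen for 3-ketoacyl-CoA synthase 20-like (LOC107848397, 1.05) and lipid-transfer genes LOC107863970 (1.33) and LOC107868153 (1.01). GDSL esterase/lipase At5g45910-like (LOC107868365) was the lower gene, at −1.26. The 6 higher genes became 2 without A18 library a and 3 without Hab library a.

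Outside these pathways, several genes separated the accessions without any overlap. Ubiquitin fusion degradation protein 1 homolog (LOC107870363), part of the machinery that pulls marked proteins to the proteasome, was at 1.49 to 1.60 in Hab and 1.54 to 1.69 in A101, while Biq was at −1.45 to −1.41 and A18 at −1.77 and −1.59. Its difference was 3.13 ± 0.08 (SE, limma adjusted p = 2.76e-15), nearly the same in the red (2.98) and yellow (3.29) pair.

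Embryogenesis-associated protein EMB8-like (LOC107839887) was at 2.35, 1.55 and 2.60 in Hab and 0.58, 0.48 and 0.73 in A101, while Biq was at −1.29 to −1.18 and A18 at −1.31 and −1.29, a difference of 2.66. G2/mitotic-specific cyclin-2 (LOC107866796), a driver of entry into mitosis, was at 0.71 to 0.96 in Hab and 0.57 to 0.75 in A101, while Biq was at −1.38 to −1.03 and A18 at −1.09 and −0.79. The difference was 1.84 in the cyclin, and no other gene of the 119 histones, cyclins and kinesins was among the 142.

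Gibberellin 2-beta-dioxygenase 8 (LOC107875467), which inactivates gibberellins, was at 1.90, 1.05 and 1.45 in Hab and 2.26, 2.26 and 2.36 in A101, while Biq was at −0.66, −0.15 and −0.01 and A18 at −0.16 and 0.32 (difference 1.98 ± 0.15, SE). A gene of peroxisomal fatty acid beta-oxidation, the multifunctional protein LOC107879966, differed by 1.87, with Biq alone far below the others (−0.71 to −0.56, against 0.95 and 1.05 in A18). The chloroplast 50S ribosomal protein 5 alpha-like gene LOC107844035 differed by 2.11, with its lowest values in A18 (−2.58 and −2.32).

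Of 53 AP2/ERF transcription factors, 3 were higher and 0 were lower (5.66% of the list, against 1.70% of all genes), with a median of 0.00 over the list. Ethylene-responsive transcription factor 5-like LOC107871072 was at 2.50, 1.25 and 1.17 in Hab and 0.88, 0.73 and 1.14 in A101, while Biq was at −0.35 to −0.19 and A18 at 0.13 and −0.26, a difference of 1.46. The others were ERF5-like LOC107871071 (1.03, and 0.95 without Hab library a) and ERF071-like LOC107864060 (1.33), the last with 1 Biq library (0.71) above the lowest Hab library (0.67). Carotenoid cleavage dioxygenase 7 (LOC107844820), an enzyme of strigolactone synthesis and the only one of 29 carotenoid pathway genes among the 288, differed by 1.22, and by 0.87 without Hab library a.

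Genes lower in the pungent accessions were led by proteinase inhibitors, which plants accumulate against feeding insects. Wound-induced proteinase inhibitor 2-like LOC107862768 was at 0.95, 0.99 and 0.63 in Hab and 0.63, 0.21 and 1.07 in A101, while Biq was at 4.38, 3.57 and 3.64 and A18 at 4.97 and 4.99. Hab and A101 were at about the same level, far from all non-pungent libraries. The difference was −3.67 ± 0.20 (SE, limma adjusted p = 5.15e-11). With accession as a random block it also passed the threshold (limma adjusted p = 0.00215).

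Another entry of the same name, LOC107862766, was at 2.33, 0.13 and 1.99 in Hab and 1.99, 1.23 and 2.38 in A101, while Biq was at 4.39, 3.56 and 3.68 and A18 at 4.88 and 4.84 (difference −2.69 ± 0.31, SE). With accession as a random block its limma adjusted p was 0.542. Proteinase inhibitor type-2-like LOC107862771 was listed at its lowest value, −1.98, in Hab library a and all A101 libraries and at −1.64 and −1.62 in the other Hab libraries, while Biq was at 0.32 to 1.15 and A18 at 1.55 and 1.67. Reads may have been split between entries of such similar names. Proteinase inhibitor I-B-like (LOC107878603), of another inhibitor family, differed by −1.05.

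The 140 genes of the defence list held 14 lower genes and 1 higher gene (10.7% of the list, against 1.70% of all genes). The median over the list was −0.07. Beside the inhibitors, the lower genes included the pathogenesis-related genes STH-21-like (LOC107864569, −1.70), PR1 basic form (LOC107840155, −1.17) and PR1A-like (LOC107879923, −1.09). Chitin-degrading or chitin-binding proteins among them were chitin-binding lectin 1-like (LOC107864797, −1.38), endochitinase 4 (LOC107878318, −1.23), acidic endochitinase pcht28 (LOC107859802, −1.22) and basic 30 kDa endochitinase (LOC107840225, −1.06). Small antimicrobial proteins were represented by snakin-1 (LOC107867209, −1.38) and osmotin-like OSML13 (LOC107865671, −1.09). Others past the threshold but not on one side were higher: snakin-2-like (LOC107861313, 1.06) and osmotin-like LOC107853923 (1.16). So were defensin genes LOC107877546 (2.10), LOC107852231 (1.33) and LOC107852225 (1.09), while defensin gene LOC107849555 was lower (−1.26). With or without lying on one side, 17 genes of the list passed the threshold as lower and 6 as higher.

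PR1A-like LOC107879923 was at −0.28 to −0.11 in Hab and −0.51 to −0.27 in A101, while Biq was at 0.72 to 1.36 and A18 at 0.51 and 0.59. STH-21-like LOC107864569 was spread widely, with Biq at 2.72, −0.85 and 0.60. Among the genes on one side, the remaining lower entry (LOC107878302, −1.86) and the higher one (LOC107878718, 1.06) are G-type lectin receptor kinases. The words of the list also caught them. The lower one missed the threshold without Hab library b (adjusted p = 0.0626, one of several libraries of which this was true), and the higher one was at 0.92 without that library. Without A18 library b, 9 of the list were lower.

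Fatty acid desaturases were another group of the lower genes. Of 43 desaturase and lipoxygenase genes, 6 were lower and 1 was higher (16.3% of the list, against 1.70% of all genes), with a median of −0.01. All 6 were named delta(12) desaturases, enzymes that introduce a further double bond into oleic acid, or, in some plants, a triple bond. LOC107851294 was at 0.26, −0.37 and −0.06 in Hab and −1.95, −1.34 and −1.14 in A101, while Biq was at 2.05, 1.00 and 1.24 and A18 at 2.27 and 1.23. Every non-pungent library lay above every pungent one, and the difference was −2.36 ± 0.42 (SE, limma adjusted p = 0.000399).

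LOC107851251 differed by −2.31 and LOC107851215 by −1.94, both without overlap. With accession as a random block the adjusted p was 0.355 for LOC107851294, 0.384 for LOC107851251 and 0.282 for LOC107851215. LOC107851434 (−1.83), LOC107843168 (−1.28) and LOC107851473 (−1.22) shared a pattern in which Biq library a (2.15 to 2.49) stood above the other Biq libraries (−0.72 to 1.29). The 6 genes share a family, and reads may have been split between them. Without A18 library b, 3 genes of the list were lower. The higher gene, 9-divinyl ether synthase-like LOC107845801, which converts lipoxygenase products, was at 1.30 to 2.19 in Hab and 0.71 to 1.04 in A101, while Biq was at −0.90 to −0.05 and A18 at −0.60 and −0.35, a difference of 1.70.

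**Figure D3:**
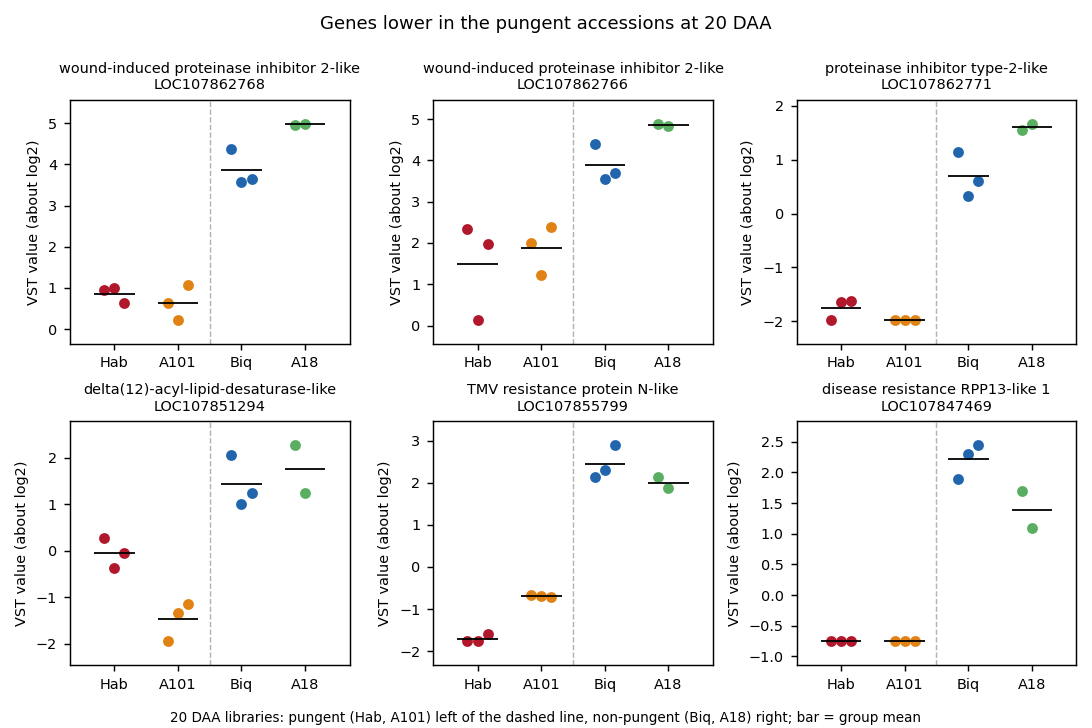
Variance-stabilized values (about log2, centred per gene) of 6 genes lower in the pungent accessions, in each 20 DAA library, with pungent left and non-pungent right of the dashed line and a bar at each group mean. Every pungent library lies below every non-pungent library in all 6 panels, and in the disease resistance RPP13-like gene all pungent libraries share the lowest value of −0.75.

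Terpene synthases make volatile and defensive terpenes. Of the 10 genes measured, 4 were lower (40% of the list, against 1.70% of all genes). In addition, 1 passed the threshold as higher without lying on one side, and the median of the list was −0.60. Alpha-farnesene synthase-like LOC107857095 was at 1.60, 1.20 and 1.98 in Hab and 2.34, 2.82 and 2.65 in A101, while Biq was at 2.38, 4.24 and 3.91 and A18 at 3.94 and 3.50. Biq library a fell within the pungent range, and the difference was −1.52 ± 0.24 (SE, limma adjusted p = 0.000104). Both (E,E)-alpha-farnesene synthase-like genes differed by −1.28 (LOC107859527) and −1.21 (LOC107859529). In LOC107859527, Biq library a (0.30) lay within the pungent range (−0.77 to 1.01), and 12 of the 22 libraries shared the lowest value. The gene for 5-epi-aristolochene synthase 2-like (LOC107851706), an entry enzyme of capsidiol synthesis, differed by −1.43 without overlap. With accession as a random block the adjusted p was 0.959 for LOC107857095, 1 for LOC107859527 and 0.926 for LOC107851706.

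Resistance genes of the nucleotide-binding type, which detect pathogen proteins, went both ways. Of 183, 6 were higher and 3 lower (4.92% of the list, against 1.70% of all genes), with a median of 0.08. A putative late blight resistance protein homolog R1B-16 (LOC107843411) was at 1.99 to 2.15 in Hab and 1.33 to 1.48 in A101. It was listed at its lowest value, −1.37, in all Biq libraries and in 1 A18 library, and at −1.19 in the other. TMV resistance protein N-like LOC107855799 was the reverse, at −1.77 to −1.60 in Hab and −0.72 to −0.67 in A101, while Biq was at 2.13 to 2.90 and A18 at 2.14 and 1.87, a difference of −3.43 ± 0.16 (SE, limma adjusted p = 7.73e-12).

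Putative disease resistance RPP13-like protein 1 (LOC107847469) was listed at its lowest value, −0.75, in all 6 pungent libraries, while Biq was at 1.89 to 2.45 and A18 at 1.09 and 1.70. The lower TMV N-like LOC107855833 differed by −1.14. Of the other higher genes, LOC107873592 (1.52) was high in Hab alone, at 2.31 to 2.56 against −0.65 to 0.01 in every other library, and RPS2-like LOC107843968 (1.32) was low in A18 alone. In LOC107841804, LOC107852233 and LOC107852560 (differences 1.36, 1.26 and 1.25) Biq alone was low, at −1.82 to −1.23, against 0.67 to 0.91 in A18. Resistance genes vary in sequence and in presence between accessions, and the part of mapping in these values was not tested. After quantile normalization 3 of the list were higher.

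Those Biq-low genes stand at the border of the rule. Among those of the 288 with a descriptive name, LOC107841804 and LOC107852233 had the smallest gaps inside it, with the lower pungent mean above the higher non-pungent mean by 0.003 and 0.009. Among the genes past the threshold with a gap of 0, just outside it, TMV resistance protein N-like LOC107851268 and actin-binding protein-like LOC107876788 are examples in which both pungent accessions and A18 were listed at the same lowest value (−1.07 and −0.76), while Biq was at 2.82 to 3.35 and 1.86 to 2.05.

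Probable polygalacturonase At1g80170 (LOC107840744), a pectin-cutting enzyme, was at −0.18, 0.23 and 0.22 in Hab and −0.53, −0.40 and −0.44 in A101, while Biq was at 2.94, 2.70 and 2.51 and A18 at 1.28 and 1.27. The difference was −2.18 ± 0.09 (SE, limma adjusted p = 1.84e-12), and of 121 pectin, cellulose and xyloglucan genes 1 was lower and 1 higher (1.65% of the list). Structural wall proteins had 3 higher and 4 lower genes of 74 (9.46% of the list, against 1.70% of all genes). Arabinogalactan peptide 21-like (LOC107845188) was higher by 1.59, whereas arabinogalactan proteins LOC107870555 (−1.59), LOC107848002 (−1.58) and LOC107857922 (−1.33) were lower, all 3 carried mostly by low values in Hab.

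Sucrose synthase-like LOC107877893, an enzyme that splits sucrose in growing tissues, was the only one of 71 sucrose, starch and sugar carrier genes among the 288. It was at 0.48, 0.11 and 0.45 in Hab and 2.79, 3.49 and 2.30 in A101, while Biq was at 2.67, 3.38 and 3.29 and A18 at 4.18 and 3.32. Its difference of −1.83 thus came from Hab, while A101 overlapped Biq. Among lower genes, DNA ligase 1-like (LOC107846080) differed by −2.07 and histone H4 (LOC107873516) by −1.52, both without overlap, and polyubiquitin-like LOC107850407 by −1.32.

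Of 81 cytochrome P450 genes, 1 was higher and 3 were lower (4.94% of the list). Of 118 glycosyltransferase genes, 3 were higher and 2 were lower (4.24%), against 1.70% of all genes. Cytochrome P450 94A1-like (LOC107846111, 1.30) was highest in Hab, at 2.05 to 2.25 against −0.41 to 0.83 in all other libraries, and cytochrome P450 81D11-like (LOC107860230, −1.57) was lower in both pairs. Zeatin O-glucosyltransferase-like (LOC107847753), which stores cytokinins as glucosides, was higher by 1.503, and anthocyanidin 3-O-glucosyltransferase 5-like (LOC107867041) lower (difference −1.57). Beta-glucuronosyltransferase GlcAT14A-like (LOC107859708) differed by −1.42, which came from the red pair (−2.74, against −0.09 in the yellow pair). Photosystem, heat shock and cytosolic ribosomal genes (63, 53 and 208 measured) held 0 of the 288 genes. At an unadjusted p under 0.05 in limma, 37, 10 and 51 of them were higher and 1, 5 and 6 lower.

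**Figure D4:**
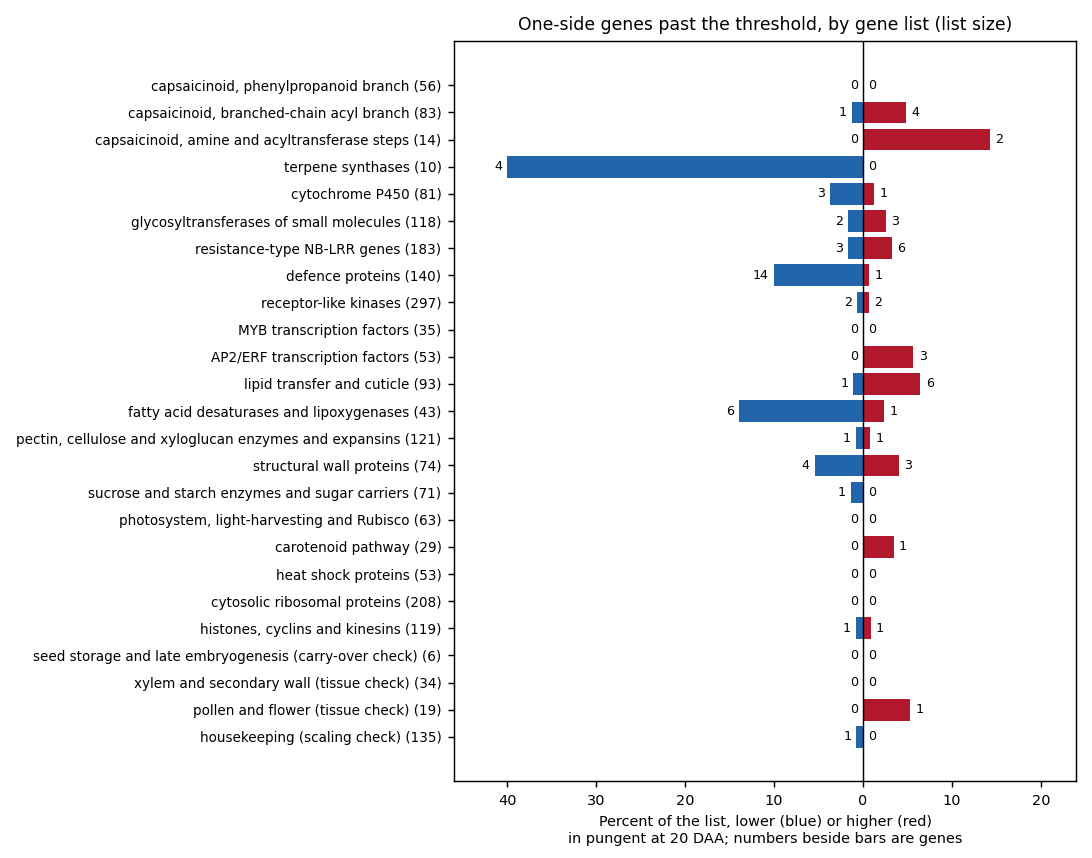
Share of each gene list (its size in parentheses) that was lower (blue, left) or higher (red, right) in both pungent than in both non-pungent accessions past the threshold at 20 DAA, with the number of genes beside each bar. Terpene synthases (4 of 10), desaturases and lipoxygenases (6 of 43) and defence proteins (14 of 140) had the longest bars on the lower side, and amine and acyltransferase genes (2 of 14) the longest on the higher side, against 142 and 146 of 16922 over all genes.

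Several of the largest differences belonged to a single accession, with the other pungent one only just on the same side. LOC107862778, named 21 kDa seed protein-like after a storage protein related to Kunitz inhibitors, was at 5.09, 7.08 and 6.10 in Hab but −0.80 to −0.51 in A101, while Biq was at −0.96 to −0.91 and A18 at −0.79 and −0.63. Protein DETOXIFICATION 35-like (LOC107863229), a transporter of the MATE family, was at 4.99 to 5.12 in A101 but −0.20 to −0.03 in Hab, while Biq was at −0.85 to −0.78 and A18 at −0.65 and −0.37. Their differences of 3.54 and 3.12 thus came from 1 pungent accession each.

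ABC transporter C family member 8-like (LOC107864024) was high in A101 (2.89 to 3.15) and in only 1 Hab library (2.73, against −0.72 in the others). Metallothionein-like protein type 2 (LOC107873510), a metal-binding protein, was at −2.17 to 1.27 in Hab but −3.44 to −3.19 in A101, within the range of A18 (−4.08 and −3.17). Aromatic-L-amino-acid decarboxylase-like (LOC107878308) was low in A101 alone, at −2.21 to −2.03, whereas Hab was at 1.38 to 1.75, Biq at 1.47 to 1.90 and A18 at 1.99 and 2.44.

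The red and yellow pairs also differed from each other in many genes, but these counts are not on the scale of the pungency counts. The colour contrast subtracted 1 pair difference from the other, whereas the pungency difference was the mean of both. The same minimum of 1 was used for each, which is easier to reach for the colour contrast. The Hab minus Biq difference exceeded the A101 minus A18 difference in 800 genes (4.73%) and was below it in 885 (5.23%), and in 97 genes (0.573%) the pairs passed the threshold in opposite directions. Among the 288 genes, 84 of the higher ones and 54 of the lower ones depended on colour in this way. Flower-specific defensin-like LOC107852222, an antimicrobial peptide gene, was at 1.79 to 3.60 in Hab and 1.74 to 2.57 in A101, while Biq was at −1.79 to −1.56 and A18 at 5.31 and 6.04, so that the pungent accessions lay between the non-pungent ones. Serine/threonine-protein kinase HT1-like LOC107847602 was at −1.45 to −1.28 in Hab and 1.39 to 1.53 in A101, while Biq was at 1.48 to 1.80 and A18 at −1.42 and −1.31, so that each pungent accession was near the non-pungent one of the other colour. Protein EXORDIUM-like 2 (LOC107840058) was at −3.93 to −3.62 in Hab and 0.86 to 1.92 in all other libraries, and (−)-germacrene D synthase-like (LOC107841877), a sesquiterpene enzyme, at 4.61 to 5.21 in A101 and −0.97 to 0.85 in all other libraries.

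The comparison at 60 DAA used separate libraries of the same accessions. There 300 genes (1.77%) were higher and 312 (1.84%) lower in the pungent accessions. Of the 142 genes higher at 20 DAA, 49 were higher and 4 lower at 60 DAA, and the 49 were 34.5% of the 142 and 16.3% of the 300. Of the 146 lower genes, 54 were lower and 2 higher at 60 DAA, and the 54 were 37.0% of the 146 and 17.3% of the 312. Median differences at 60 DAA were 0.54 and −0.71, against 0.00 over all genes.

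GABA transaminase 2 (LOC107854420) had 60 DAA means of −2.30 (Hab), −2.02 (A101), −2.28 (Biq) and −2.27 (A18), a difference of 0.11 ± 0.20 (SE). Acylsugar acyltransferase LOC107859692 differed by 0.15 and FabG-like LOC107843767 by 0.32 at 60 DAA. The transaminase was listed at its lowest value, −2.42, in 3 libraries and the acyltransferase at its lowest, −1.91, in 5. All of these were 60 DAA libraries, so the 60 DAA differences of both genes are bounded by those values. The pungency difference itself changed between the stages by −3.44 for the transaminase, −3.15 for the acyltransferase and −1.52 for the reductase. Such a change passed the threshold in 3.45% of all genes, but these genes were chosen with the same 20 DAA values, so their change is given as a description. All 3 genes had lower means at 60 DAA than at 20 DAA in every accession.

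Other genes separated the accessions at both stages. Ubiquitin fusion degradation protein 1 homolog (LOC107870363) differed by 3.10 at 60 DAA, late blight resistance homolog LOC107843411 by 2.09 and EMB8-like LOC107839887 by 1.76. G2/mitotic-specific cyclin-2 (LOC107866796) widened to 3.94, with means of 2.33 in Hab and 2.17 in A101, while Biq was at −1.38 and A18 at −1.99. On the lower side, proteinase inhibitors LOC107862768 (−3.18), LOC107862766 (−3.49) and LOC107862771 (−4.11) stayed apart. So did TMV N-like LOC107855799 at −2.87 and DNA ligase 1-like LOC107846080 at −2.10. Proteinase inhibitor I-B-like LOC107878603 did not, with a difference of 0.21 at 60 DAA.

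A few genes turned round between the stages, and their choice followed a look at the values. Salicylate carboxymethyltransferase-like (LOC107864268), which makes the volatile methyl salicylate, differed by 1.67 at 20 DAA and −3.09 at 60 DAA. At 20 DAA it was at 0.96, 0.83 and 0.54 in Hab and 0.45, −0.63 and 0.27 in A101, while Biq was at −2.22, −0.87 and −0.72 and A18 at −1.69 and −0.81. Phosphoenolpyruvate carboxykinase (LOC107867324), which turns organic acids towards sugars, differed by 1.29 at 20 DAA and −3.21 at 60 DAA, where its means were −0.85 in Hab and −1.06 in A101, while Biq was at 3.74 and A18 at 0.77. Arabinogalactan proteins LOC107870555 and LOC107857922 turned the other way, at 1.35 and 1.34 at 60 DAA.

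**Figure D5:**
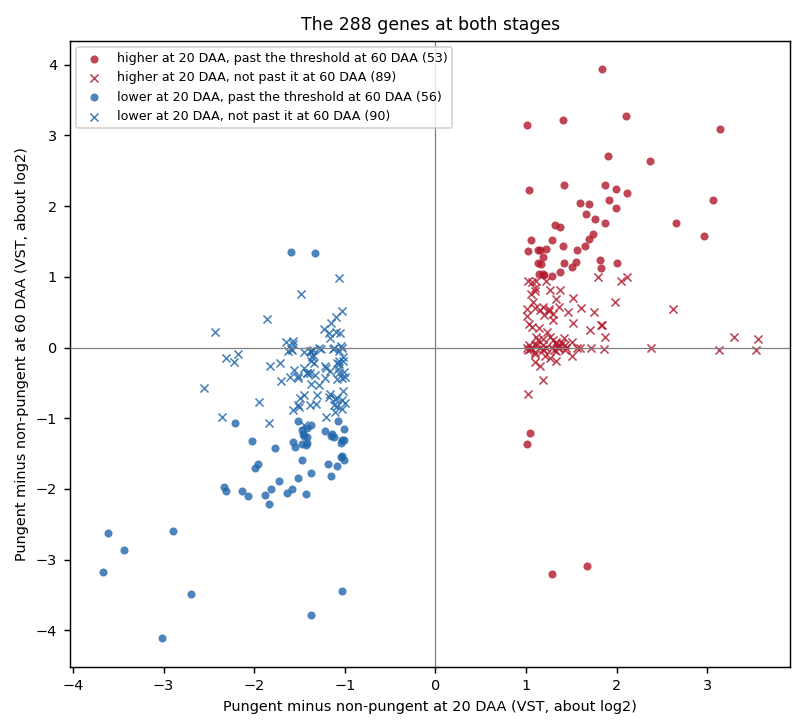
Pungent minus non-pungent difference at 20 DAA (horizontal axis) and at 60 DAA (vertical axis), both on the variance-stabilized scale (about log2), for the 288 genes, red where higher and blue where lower at 20 DAA, with filled circles for genes also past the threshold at 60 DAA. Many genes lie near 0 on the vertical axis, 49 red and 54 blue circles keep their direction, and 4 red and 2 blue circles change it.

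Genes without a descriptive name made up 45 of the 142 and 44 of the 146 genes. LOC107877753 was at 2.70, 2.05 and 2.46 in Hab and 0.83, 0.58 and 2.25 in A101, against −1.22 to −1.03 in Biq and −1.22 in both A18 libraries, a difference of 2.97. LOC107841898 was at −1.61 to −1.44 in Hab and −1.47 to −1.40 in A101, while Biq was at 2.01 to 2.19 and A18 at 1.91 and 2.41, a difference of −3.61 that was past the threshold at 60 DAA too (−2.63). LOC107852082 differed by 2.11 and LOC107847686 by −2.89.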

How the data were processed

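RNA from pericarp of 4 accessions at 20 and 60 DAA was sequenced as paired reads. Trimming by the authors used fastp 0.23.1 and quantification used Salmon 1.6.0 with *C. annuum* Zunla-1 as reference. The authors then removed genes with low counts and applied the variance-stabilizing transformation of DESeq2 1.36.0 in R 4.2.0. The deposited values are therefore close to log2, and each gene's mean over the 22 libraries had been subtracted. The deposited values hold no counts, so the depth of each library was not used here and low genes cannot be told from their level. The plants stood in randomized blocks, which the column names do not give, so no block entered the model.

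Libraries were assigned to accession and stage by column name and lettered a to c in column order. limma 3.58.1 in R 4.3.3 fitted a mean for each of the 8 groups. The pungency difference was the mean of Hab and A101 minus the mean of Biq and A18, tested two-sided with Benjamini-Hochberg adjustment over 16922 genes. Stage dependence and colour dependence were contrasts of these differences. Scripts were tested on simulated data, and figures were drawn with matplotlib 3.10.9. Gene lists were word matches to gene names.

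Named genes were the 10 largest differences each way without overlap of libraries, up to 3 each way of each list, all called members of the capsaicinoid lists, all genes of the amine list, the 5 largest each way shared with 60 DAA or dependent on stage, the 3 largest each way dependent on colour, 2 unnamed IDs each way, and the 2 genes nearest the border of the rule on each side. Others were chosen after their values were seen. The genes and lists were chosen with earlier results of these data known. Alternatives were other scalings, weights, thresholds and sets of libraries, and accession as a random block. Sequences and coordinates were not used here.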

Additional observations from a re-analysis of the deposited data

Results flagged for a closer look

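The pungency difference depended on the colour pair or on the stage in many genes, each tested as a difference of differences with limma. At 20 DAA the Hab minus Biq difference was above the A101 minus A18 difference in 800 genes and below it in 885, and the pairs were past the threshold in opposite directions in 97. Between stages, the pungency difference was more positive at 60 DAA in 279 genes and more negative in 305. Of the 106 genes named in the text or listed here, 51 depended on stage and 47 on colour. Over all genes the stage contrast passed in 3.45%, and the colour contrast in 4.73% as higher and 5.23% as lower. Many of the 106 were chosen by their 20 DAA values or by these contrasts themselves, so their counts are only a description.

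The change of the pungency difference from 20 to 60 DAA was −3.44 for GABA transaminase 2 (LOC107854420), −3.15 for acylsugar acyltransferase 3-like (LOC107859692) and −3.57 for 21 kDa seed protein-like (LOC107862778). It was −3.15 for DETOXIFICATION 35-like (LOC107863229) and −2.08 for ABC transporter C family member 8-like (LOC107864024). For 2 genes that turned round it was −4.755 (salicylate carboxymethyltransferase-like, LOC107864268) and −4.49 (phosphoenolpyruvate carboxykinase, LOC107867324). Proteinase inhibitor LOC107862771 changed by −1.09, a wider gap at 60 DAA, and cyclin-2 (LOC107866796) by 2.10. Lower genes whose difference shrank were protein TAP1-like (LOC107844941, 2.02), RPP13-like protein 1 (LOC107847469, 1.99), delta(12)-acyl-lipid-desaturase-like (LOC107851251, 2.16) and acanthoscurrin-2-like (LOC107864360, 2.65).

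The red pair minus yellow pair difference had its 3 largest values in each direction among genes with a descriptive name in flower-specific defensin-like genes LOC107877546 (7.96) and LOC107852222 (7.77), lipid-transfer protein LOC107845941 (7.81), germacrene D synthase-like LOC107841877 (−5.98), EXORDIUM-like 2 LOC107840058 (−5.98) and HT1-like kinase LOC107847602 (−5.84). It was 6.996 for 21 kDa seed protein-like LOC107862778, −4.85 for DETOXIFICATION 35-like LOC107863229 and −2.07 for GABA transaminase 2 (LOC107854420).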

How the results depend on the processing

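No paired analysis was possible because the columns carry no replicate numbers. Subtracting library medians gave the same 142 higher and 146 lower genes, and 125 and 133 of them remained after quantile normalization, 134 and 134 with only the 20 DAA libraries, 131 and 121 with array weights and 141 and 144 with robust moderation. Each count in this paragraph is for higher and then lower genes.

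At an adjusted p alone, 1739 and 1642 genes passed at 20 DAA, of which 926 and 879 lay on one side, 251 and 267 without overlap of libraries, 421 and 360 also at 60 DAA, and 182 and 209 genes passed in both pairs. The other comparisons then gave 2759 and 2626 (Hab minus Biq), 910 and 781 (A101 minus A18), 2075 and 1948 (colour), 3274 and 2998 (60 DAA) and 1901 and 1834 (stage). A test against the minimum difference itself (limma treat) passed 72 and 71, with 45 and 42 on one side, 29 and 29 without overlap, 21 and 20 also at 60 DAA and 14 and 12 in both pairs. With accession as a random block (consensus correlation 0.573), 15 and 21 genes passed, all on one side and without overlap, and 13 of 78 named calls remained. Without genes in which 3 or more libraries share the lowest value (15632 left), 104 and 132 passed, 67 higher genes lay on one side, 35 without overlap and 25 also at 60 DAA, and 16 and 31 passed in both pairs. Quantile normalization left 3 higher resistance-type genes.

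Leaving out each library in turn gave 119 to 168 higher and 127 to 160 lower genes on one side, the lowest without Hab library a and A18 library b. List counts ranged from 2 to 5 (amine and acyltransferase), 2 to 4 (branched-chain acyl), 9 to 18 (defence, lower), 3 to 7 (desaturases, lower) and 2 to 9 (lipid transfer and cuticle). Single genes turned sign only near 0 in these runs: LOC107840627 (main value −0.04) ranged from −0.096 to 0.0097, being 0.0037 without Hab library a, and vinorine synthase-like LOC107857253 (main value 0.33) from −0.056 without Hab library b to 0.70. The causes were not tested.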
